A study of Mus musculus with 7 samples.

Results

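Globins and erythroid genes were examined in growth plate RNA of F1 mice, in which each gene's counts were divided between the C57BL/6J (B6) and the CAST/EiJ (CAST) allele. The genes were chosen by symbol: the adult alpha globins Hba-a1 and Hba-a2, the adult beta globins Hbb-bs and Hbb-bt, the red cell membrane genes Slc4a1 and Epb42, the erythroid transcription factor gene Klf1, and Ahsp. Of these 8 symbols, 7 were matched to a row among the 43346 genes of the files, and Ahsp was not analysed here. The study crossed B6 and CAST and collected the proximal and distal tibial growth plates of 7 male F1 mice, numbered 1 to 5, 7 and 8, at 21 days of age. All 7 mice form 1 untreated group, so the comparison is between the alleles within each animal. The labels name the tissue as growth plate chondrocytes. The whole dissected tissue was homogenized, without any sorting of cells.

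Hemoglobin, the oxygen carrier of red cells, is a tetramer of alpha and beta globin chains, and each chain holds a heme group. Erythroid precursors make globin RNA in large amounts in the bone marrow, and reticulocytes still carry it after the nucleus is lost. KLF1 is a zinc finger factor that binds CACCC elements in the promoters of the adult beta globin genes and of many other erythroid genes. SLC4A1, or band 3, is the anion exchanger of the red cell and anchors the membrane skeleton, to which EPB42, a skeleton protein, binds. Growth plate cartilage itself holds no blood vessels, but it borders on marrow and on vascular bone.

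Total counts per mouse ran from 14.1 M to 37.8 M (M stands for 1000000 counts, median 27.6 M), and the B6 share of all counts ran from 50.1% to 50.6%. These totals exceed the average number of reads given in the labels, and the reason is not given in the sources used here. If fragments were counted more than once, intervals computed from these counts are too narrow even for counting error. The 7 genes took 0.820% to 1.99% of all counts (median 1.09%), and the 4 globins took 0.769% to 1.89%. Markers of chondrocytes were present in every mouse, with 12 of 12 listed genes at 10 or more counts and a summed level of 65601 to 106306 CPM (counts per 1000000 counts of the library). Markers of osteoblasts, osteoclasts, endothelium, neutrophils, B cells and megakaryocytes were also present, with no listed marker at 0.

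In GENCODE M21 (GRCm38, the build called mm10 by the submitters), Hba-a1 lies at chr11:32283511-32284465 and Hba-a2 at chr11:32296489-32297298, both on the plus strand. Hbb-bt lies at chr7:103812524-103813996 and Hbb-bs at chr7:103826534-103828096, both on the minus strand. Slc4a1 lies at chr11:102348824-102366203 and Epb42 at chr2:121017891-121037072, both on the minus strand, and Klf1 at chr8:84901928-84905291 on the plus strand. Counts were taken over the transcripts of each gene.

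The sequences bear directly on how far each globin count can be read on its own. In the B6 reference (GRCm38, GENCODE transcripts), the 429 coding bases of Hba-a1 and Hba-a2 differed at 1 base. The substitution was C381T from Hba-a1 to Hba-a2, counted from the first base of the start codon, and it left the amino acid unchanged. The coding bases around it are shown here, with the differing base in capitals:
Hba-a1: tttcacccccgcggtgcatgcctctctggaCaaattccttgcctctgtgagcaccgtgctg
Hba-a2: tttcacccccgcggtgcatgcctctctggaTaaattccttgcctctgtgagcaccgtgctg
The beta pair was as close in its coding sequence. Hbb-bs and Hbb-bt differed at 1 of 444 coding bases, C417T from Hbb-bs to Hbb-bt, again without a change of amino acid. The last part of the coding sequence is shown, with the differing base in capitals:
Hbb-bs: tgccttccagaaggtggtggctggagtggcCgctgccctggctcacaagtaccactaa
Hbb-bt: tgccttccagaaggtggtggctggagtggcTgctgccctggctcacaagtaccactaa
Outside the coding sequence the pairs diverged to different degrees. Over the aligned transcripts, the alpha pair had 1 difference in 538 bases and the beta pair had 43 in 621 bases (93.1% identity).

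Reads of 75 bases therefore often fit both copies. Of all 75-base windows, 81.0% of those in the Hba-a2 transcript and 62.2% of those in Hba-a1 occurred unchanged in the other copy, as did 64.3% for Hbb-bs and 56.6% for Hbb-bt. With up to 3 mismatches, 96.7% of the Hba-a2 windows and 74.2% of the Hba-a1 windows matched the other copy, as did 74.7% for Hbb-bs and 65.8% for Hbb-bt. The study's alignment allowed 3 mismatches but kept only the alignments with the fewest, so the shares of unchanged windows are the closer guide to reads that cannot be placed. Of the 236 windows found in the Hba-a1 transcript alone, 161 started before the coding sequence, in a 5′ stretch that the annotated Hba-a2 transcript lacks. RefSeq places the start of Hba-a1 later. The 220 bases before its RefSeq start are chr11:32283452-32283671, and the GENCODE start, 32283511, lies within them. The Hba-a1 length of 699 bases, used below for its CPM per kilobase, includes this stretch. Whether reads arise from it was not tested. No 75-base window of Slc4a1, Epb42 or Klf1 occurred in another gene's transcript. In the deposited values, Slc4a1 and Klf1 had whole-number totals in all 7 mice and Epb42 in 5, whereas no globin had a whole-number total in any mouse (tolerance 0.0001 counts). Epb42 shares no window, yet its totals were not all whole, and the erythroid genes Alas2, Ank1 and Epb41 had none in any mouse. A fractional total is therefore no sure mark of a near-identical copy. The globin counts were estimates, and the shared windows leave their division among copies uncertain. Results for single copies are uncertain for that reason, and the sums over each pair are given beside them.

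Promoter sequences are shown as a description of the genes, and their part in the levels across the mice was not tested. RefSeq promoter windows (GRCm38.p6, 250 bases before to 50 after the start) were found for 6 of the 8 symbols, all but Slc4a1 and Ahsp. The alpha pair was identical over 297 aligned promoter bases, while the beta pair matched at 74.7% of 293. The 220 bases before the start are printed 5′ to 3′ for 4 genes, with motif matches on either strand in capitals. The motifs searched were the core letters of the GATA factors (GATAA), the CACCC box in its short form as just written, its longer form (CCNCNCCC), which can overlap the short form, the CCAAT box as written, and the letters of the TATA box (TATAA). Hba-a2 lies at chr11:32296272-32296491 on the plus strand, Hbb-bs at chr7:103827929-103828148 and Hbb-bt at chr7:103813924-103814143 on the minus strand, and Klf1 at chr8:84901762-84901981 on the plus strand.
Hba-a2: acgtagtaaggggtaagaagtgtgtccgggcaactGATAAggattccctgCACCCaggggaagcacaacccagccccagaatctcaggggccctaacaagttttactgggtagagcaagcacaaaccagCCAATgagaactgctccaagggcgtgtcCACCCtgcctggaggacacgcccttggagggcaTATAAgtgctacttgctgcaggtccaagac
Hbb-bs: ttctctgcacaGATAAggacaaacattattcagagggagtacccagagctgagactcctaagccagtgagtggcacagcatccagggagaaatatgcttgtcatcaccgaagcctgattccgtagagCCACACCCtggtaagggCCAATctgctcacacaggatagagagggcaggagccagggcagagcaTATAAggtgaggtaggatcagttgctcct
Hbb-bt: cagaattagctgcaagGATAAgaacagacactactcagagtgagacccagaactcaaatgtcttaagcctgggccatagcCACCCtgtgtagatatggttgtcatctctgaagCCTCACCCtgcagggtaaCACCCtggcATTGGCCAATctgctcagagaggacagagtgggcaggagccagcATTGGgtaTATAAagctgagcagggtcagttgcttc
Klf1: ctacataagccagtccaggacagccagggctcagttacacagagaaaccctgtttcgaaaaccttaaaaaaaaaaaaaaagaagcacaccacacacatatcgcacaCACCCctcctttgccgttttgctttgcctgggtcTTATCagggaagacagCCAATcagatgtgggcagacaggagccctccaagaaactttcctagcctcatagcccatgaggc
These are descriptions of letters and not of binding. Among all 32851 promoter windows of this length, the GATA letters occurred in 25.4%, the short form of the CACCC box in 57.5% and its longer form in 49.5%, the CCAAT box in 37.4% and the TATA letters in 24.9%. Each of the 4 globin windows held the GATA letters, the short CACCC form, the CCAAT box and the TATA letters. Of the 6 windows only those of Hbb-bs and Hbb-bt held the longer CACCC form. The Klf1 window held the GATA letters, the short CACCC form and the CCAAT box, and lacked the TATA letters. The Epb42 window, not printed here, held the GATA and TATA letters and lacked both CACCC forms and the CCAAT box.

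The first question was how much erythroid RNA each growth plate held. Alpha and beta globin were among the most abundant coding RNAs in the tissue. By CPM per kilobase of transcript, averaged over the mice, Hba-a2 ranked 2, Hbb-bs 4 and Hbb-bt 8 among 21428 coding genes. On the same scale Slc4a1 ranked 267, Hba-a1 680, Klf1 1897 and Epb42 6101. The mean levels in CPM per kilobase (SD over 7 mice) were 10323 ± 3828 for Hba-a2, 8117 ± 3062 for Hbb-bs, 2035 ± 780 for Hbb-bt and 137 ± 42.5 for Slc4a1. Hba-a1 followed at 51.6 ± 22.3, Klf1 at 19.9 ± 5.69 and Epb42 at 5.56 ± 2.26. The order was the same in each of the 7 mice, though the place of a single globin copy is uncertain because of the shared sequence. Between neighbours in that order, the ranges over mice overlapped for Hba-a2 (6469 to 15485) and Hbb-bs (5114 to 12625) and did not overlap for the other pairs of neighbours.

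The level differed between animals by more than 2-fold for 6 of the 7 genes. Hba-a2, the main alpha globin row, had 4363, 3696, 3584, 4904, 8579, 8360 and 6545 CPM in mice 1, 2, 3, 4, 5, 7 and 8. Hbb-bs, the main beta globin row, had 4082, 3325, 3212, 4103, 7929, 7361 and 5672 CPM in the same order. Both genes were highest in mice 5 and 7 and lowest in mice 2 and 3, with mouse 8 next after mice 5 and 7. Hbb-bt, the other adult beta globin, had 1130, 924, 876, 1210, 2293, 2013 and 1567 CPM. Hba-a1 had 23.9, 20.3, 20.5, 33.3, 52.4, 58.1 and 44.1 CPM, the one globin row in which mouse 7 was above mouse 5.

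The erythroid genes that share no reads with the globins followed the same mice. Slc4a1, the anion exchanger, had 547, 440, 468, 582, 969, 808 and 555 CPM. Klf1, the erythroid transcription factor gene, had 23.7, 21.1, 21.9, 30.97, 41.8, 41.1 and 32.7 CPM. Epb42, the band 3 partner, had 18.6, 12.001, 19.1, 22.4, 41.8, 25.3 and 20.8 CPM. Mice 5 and 7 held the first and second place for each of the 7 genes, and mouse 2 or mouse 3 was lowest for each. The highest animal exceeded the lowest by 1.98-fold for Klf1, 2.20-fold for Slc4a1, 2.39-fold for Hba-a2 and 3.49-fold for Epb42. The range of Epb42 rested on single animals: on the log2 scale it was 1.76 over all mice, 1.04 without mouse 5 and 1.15 without mouse 2. In bulk tissue, fewer cells of a type and less RNA per cell cannot be told apart.

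**Figure D1:**
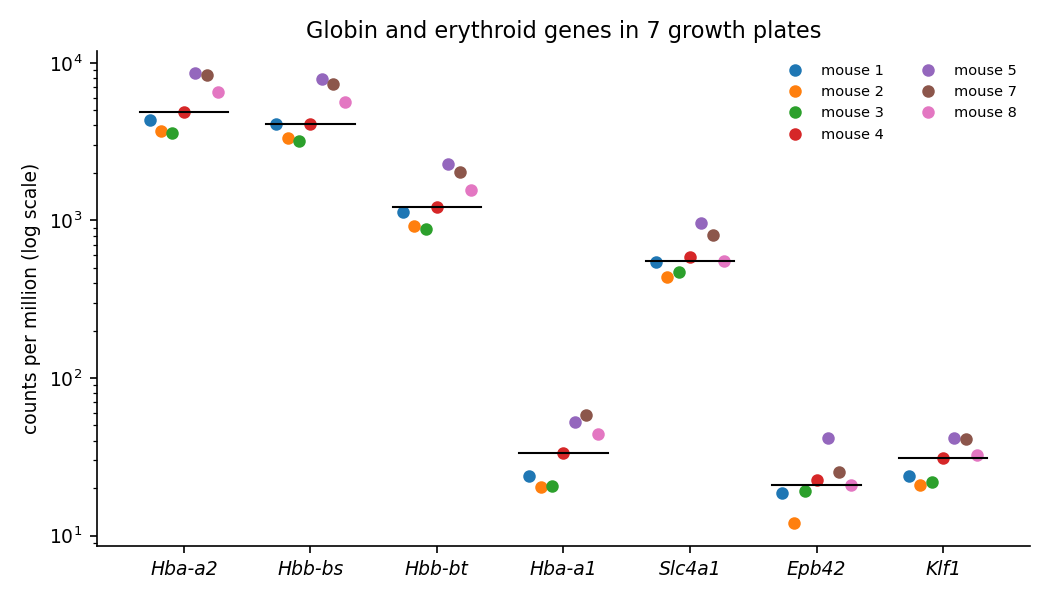
Level of each gene in CPM (y axis, log scale) in the 7 mice, 1 point per mouse and a line at the median. Mice 5 and 7 are the 2 highest points for every gene, and the lowest value of the 3 abundant globin rows is 876, for Hbb-bt in mouse 3.

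This spread between animals was wide beside that of other genes. The SD of log2 CPM was 0.63 for Hba-a1, 0.53 for Hba-a2, 0.53 for Hbb-bs, 0.54 for Hbb-bt, 0.53 for Epb42, 0.41 for Slc4a1 and 0.41 for Klf1. The median over the 15111 genes with 10 counts or more per animal was 0.21, and the 90th percentile was 0.35. All 7 genes lay above that percentile, from 95.02 for Klf1 to 99.4 for Hba-a1. No condition separates the mice, so the order of the animals has no group to be tested against.

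Across the 7 mice the other genes rose and fell with Slc4a1, which was taken as the reference since it shares no reads with a copy. Pearson's r of log2(CPM + 0.5) was 0.92 for Hba-a2, 0.93 for Hbb-bs, 0.94 for Hbb-bt, 0.87 for Hba-a1, 0.92 for Epb42 and 0.92 for Klf1. Each had an adjusted p of 0.00884 or 0.00437 from an exact permutation test, two-sided and adjusted over 12 relations. Spearman's rho was 0.93 for the 4 globins and 0.96 for Epb42 and Klf1, each with an adjusted exact permutation p of 0.0101. Without mice 5 and 7, the 2 animals farthest from the median of Slc4a1, r was 0.77 for Hba-a1, 0.76 for Hba-a2, 0.74 for Hbb-bs, 0.79 for Hbb-bt, 0.83 for Epb42 and 0.84 for Klf1. With 5 mice left these are values without a test. Leaving out 1 animal, Hba-a1 did not pass without mouse 1, 2 or 3 (adjusted exact permutation p 0.0571, 0.063 and 0.0625), and Epb42 did not pass without mouse 5 (0.0867).

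Of 3 genes of other marrow cells, 1 passed the same test, though which of them passed depended on the setting. Elane, a neutrophil precursor protease, had r = 0.86 with Slc4a1 (adjusted p 0.022, exact permutation test, n = 7 mice) and rho = 0.96 (adjusted p 0.0101, the same test). Cd79a, a B cell receptor component, had r = 0.79 (adjusted exact permutation p 0.0516) and Pf4, a platelet chemokine, had r = 0.76 (adjusted exact permutation p 0.0633), and neither passed. With protein-coding counts as the denominator, Cd79a and Pf4 passed as well (adjusted exact permutation p 0.036 and 0.0485), and Elane did not pass without mouse 1, 2 or 3 (adjusted exact permutation p 0.0646, 0.063 and 0.0619). Without mice 5 and 7, r was 0.94 for Elane, 0.41 for Cd79a and 0.45 for Pf4. The cartilage gene Col2a1 had r = -0.35 (adjusted exact permutation p 0.441), and the bone collagen gene Col1a1 had r = -0.70 (adjusted exact permutation p 0.0922). Col1a1 passed with protein-coding counts as the denominator (r = -0.83, adjusted exact permutation p 0.0294). It also passed without mouse 8 (r = -0.85, adjusted exact permutation p 0.045), and in no other setting tried. Alas2, the first enzyme of erythroid heme synthesis, had r = 0.97 (adjusted exact permutation p 0.00437), and 0.86 without mice 5 and 7.

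Whole marker lists of these cells also varied between the mice. The summed level of 10 neutrophil markers ran from 1528 to 3295 CPM, lowest in mouse 2 and highest in mouse 5. That of 10 B lineage markers ran from 195 to 438 CPM, lowest in mouse 3 and highest in mouse 7, and that of 7 megakaryocyte markers from 93.8 to 192 CPM, lowest in mouse 4 and highest in mouse 7. The highest animal exceeded the lowest by 2.16-fold, 2.25-fold and 2.05-fold in these lists, and by 2.43-fold in the erythroid list. The 12 chondrocyte markers spanned 1.62-fold with the highest sum in mouse 4, and the 6 osteoblast markers spanned 1.71-fold with the highest sum in mouse 2. The part of these other cells in the spread of erythroid RNA was not tested.

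**Figure D2:**
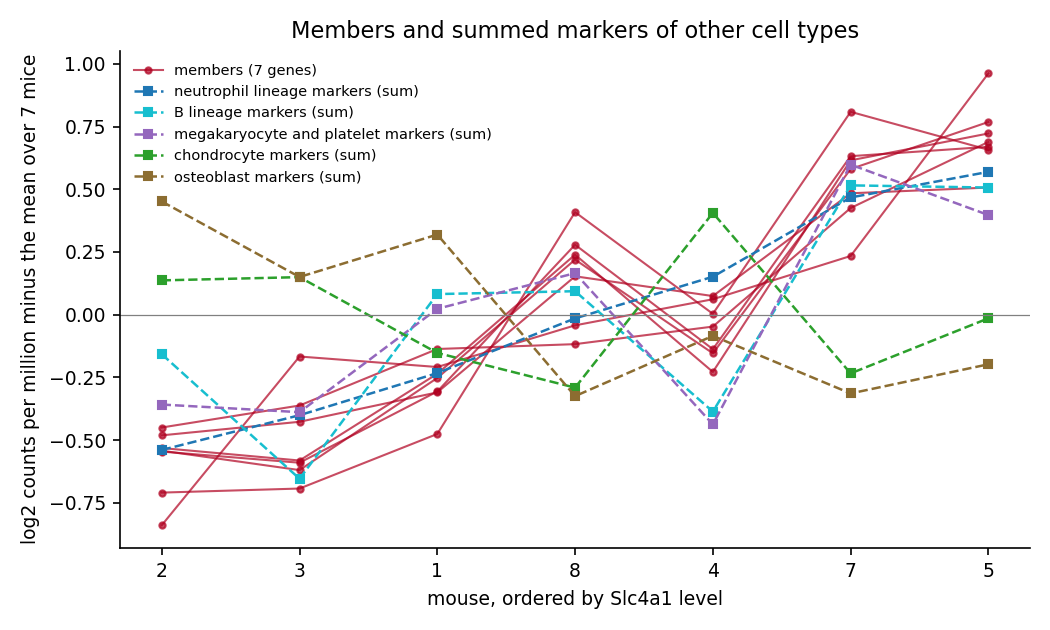
Log2 CPM minus the mean over 7 mice (y axis) for the 7 genes (red) and for summed markers of other cell types (dashed), with mice ordered by Slc4a1 level. The red lines and the neutrophil, B lineage and megakaryocyte lines are all above 0 in mice 7 and 5, where the osteoblast line is below 0.

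The genes most like Slc4a1 over the mice were mostly known from red cells. Among 13536 coding genes whose counts reached 10 in each animal, the 10 highest values of r belonged to Add2, Nfe2, Dmtn, Cpox, Slc46a3, Fn3k, Uros, Kel, G6pdx and Ube2l6, from 0.99 down to 0.98. Add2 and Dmtn encode the membrane skeleton proteins beta adducin and dematin. Nfe2 encodes a subunit of an erythroid and megakaryocytic transcription factor, Cpox and Uros encode enzymes of heme synthesis, and Kel encodes a blood group antigen. The 6 other genes examined here ranked from 141 for Hbb-bt to 568 for Hba-a1 in this order, and 0 of them were in the first 100. The median r over all 13536 genes was 0.18. The median was 0.91 for 19 genes of heme and iron, 0.89 for 20 of the red cell membrane, 0.87 for 20 of red cell enzymes and maturation and 0.85 for 20 erythroid regulators. The lowest values of r within the lists were those of Jak2 (0.04), Tmod1 (0.02), Steap3 (-0.11), Slc2a1 (-0.17) and the repressor gene Zbtb7a (-0.64), and these 5 names were chosen after their values were seen. All these values are over 7 animals.

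The second question was whether the B6 and CAST alleles gave equal counts. Of the 7 genes, Hba-a2 alone was called at a false discovery rate (FDR) below 0.20 with edgeR's likelihood-ratio test, beside 32.6% of the 21805 genes tested (7111 genes). Hba-a2 was called with CAST higher, as were 15.4% of the tested genes, while 17.2% were called with B6 higher. The Hba-a2 row held 16303, 20343 and 56378 B6 counts in the lowest, median and highest mouse, and 82626, 97513 and 268326 CAST counts. Every CAST count exceeded every B6 count. The CAST allele took 82.8% ± 0.343 (SD, n = 7) of the Hba-a2 counts, with 82.4% in mouse 2 (95% Wilson interval 82.2% to 82.6%) as the lowest and 83.5% in mouse 3 (83.3% to 83.8%) as the highest. The fitted log2 fold change was 2.29 (FDR 5.38e-20, edgeR), and the mean log2 ratio per mouse was 2.27 ± 0.035, higher in CAST in 7 of 7 mice. The exact sign-flip permutation test gave 0.0156, the smallest p that 7 mice allow, and 0.0684 after adjustment over all genes tested.

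Shares this far from equality were found toward CAST and toward B6 among autosomal genes. Of the 14526 autosomal genes whose counts reached 10 in each animal, 144 including Hba-a2 had a mean CAST share at or above that of Hba-a2. A mean B6 share as high was found for 145. Of the 179 autosomal genes with a mean of 10000 counts or more, 6 including Hba-a2 were at or above it. The others were the U3 small nucleolar RNA genes Rnu3a and Rnu3b2 and the predicted genes Gm10076, Gm26917 and Gm42418. Windows that these genes share with other genes were not examined.

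Hba-a1 showed no such skew. The Hba-a1 row held 277, 389 and 992 B6 counts in the lowest, median and highest mouse and 269, 342 and 989 CAST counts, and the ranges of the alleles overlapped almost wholly. Its CAST share was 48.9% ± 2.80 (SD, n = 7), CAST was higher in 3 of 7 mice, and the fitted log2 fold change was -0.01 (FDR 1.0, edgeR). The mean log2 ratio was -0.06 ± 0.162 (exact sign-flip permutation p 0.359). Hba-a1 took 0.614% ± 0.0632 of the alpha counts. By allele its share was 1.80% ± 0.148 of the B6 alpha counts (1.67% to 2.06%) and 0.365% ± 0.0514 of the CAST alpha counts (0.296% to 0.435%). These ranges did not overlap. Over the windows that both transcripts share, reads of one copy can be listed under the other, so the sum over the copies is given next.

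Summed over both copies, alpha globin nearly repeated the Hba-a2 row, since Hba-a1 took 0.614% of the alpha counts. The sum is therefore not a separate test of the skew. Copies were compared in the B6 reference alone, so reads placed on the other copy of the other allele were not examined. The B6 alleles gave 601, 856 and 1516 CPM in the lowest, median and highest mouse, and the CAST alleles gave 3004, 4082 and 7115 CPM. The CAST share was 82.6% ± 0.349 (SD, n = 7), which is 4.76 ± 0.118 CAST counts per B6 count. The mean log2 ratio was 2.25 ± 0.035, higher in CAST in 7 of 7 mice (exact sign-flip permutation p 0.0156). With the copies summed before the fit, the log2 fold change was 2.27 (FDR 1.23e-19, edgeR).

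The beta globins were near balance as a locus and skewed in opposite directions as copies. The Hbb-bs row held 41471, 50156 and 144265 B6 counts in the lowest, median and highest mouse and 44766, 53626 and 155835 CAST counts. The alleles overlapped across mice, but CAST was higher within each of the 7 mice, with a share of 51.5% ± 0.493 (SD, n = 7). The mean log2 ratio was 0.09 ± 0.028 (exact sign-flip permutation p 0.0156, adjusted 0.0684). The fitted log2 fold change was 0.11 (FDR 0.874, edgeR). In the fit that treats each mouse as a replicate block it was 0.11 with an FDR of 6.17e-14.

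Hbb-bt went the other way. The row held 13739, 15716 and 48388 B6 counts and 10448, 12665 and 38390 CAST counts in the lowest, median and highest mouse. B6 was higher within each of the 7 mice, and the CAST share was 44.0% ± 0.579 (SD, n = 7). The mean log2 ratio was -0.35 ± 0.034 (exact sign-flip permutation p 0.0156, adjusted 0.0684). The fitted log2 fold change was -0.32 (FDR 0.387, edgeR). In the fit with the block it was -0.33 (FDR 4.74e-154). Hbb-bt made up 24.4% ± 0.703 of the beta counts on the B6 alleles and 19.3% ± 0.428 on the CAST alleles. The difference of 5.12 ± 0.512 percentage points had the same sign in 7 of 7 mice (exact sign-flip permutation p 0.0156).

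Summed over both copies, beta globin was near balance. The B6 alleles gave 2083, 2653 and 5090 CPM in the lowest, median and highest mouse and the CAST alleles gave 2005, 2660 and 5131 CPM. The CAST share was 49.8% ± 0.407 (SD, n = 7), and CAST was higher in 4 of 7 mice. The mean log2 ratio was -0.01 ± 0.023 (exact sign-flip permutation p 0.438), and the fitted log2 fold change was 0.02 (FDR 1.0, edgeR, and 0.529 with the block).

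**Figure D3:**
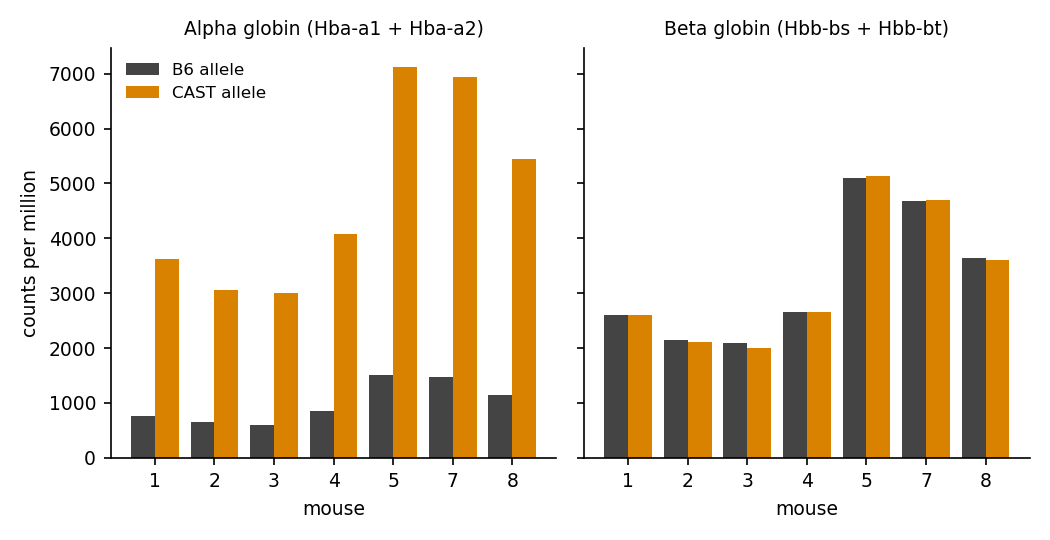
CPM of the summed alpha globin copies (left) and beta globin copies (right) on the B6 (grey) and CAST (orange) allele in each mouse. The CAST alpha bar exceeds the B6 alpha bar in all 7 mice, from 3004 against 601 to 7115 against 1516, while the beta bars are near equal.

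The skew of one locus and the balance of the other set the alpha to beta ratio of each allele apart. Over both alleles the ratio of alpha to beta counts was 0.883 ± 0.0326 (SD, n = 7). It was 0.306 ± 0.013 on the B6 alleles, from 0.288 to 0.323, and 1.46 ± 0.058 on the CAST alleles, from 1.39 to 1.53. The ranges of the alleles did not overlap. The ratio is of counts, without division by transcript length.

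The 3 erythroid genes without near-identical copies lay close to balance. Slc4a1 had 5529, 6411 and 18287 B6 counts in the lowest, median and highest mouse and 5858, 6689 and 18408 CAST counts, which overlapped. Its CAST share was 50.8% ± 0.763 (SD, n = 7), higher in 6 of 7 mice. The fitted log2 fold change was 0.06 (FDR 0.951, edgeR, and 0.00126 with the block), and the exact sign-flip permutation p was 0.0312, adjusted 0.108. Slc4a1 lies on the same chromosome, 11, as the alpha globins.

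Epb42 and Klf1 had fewer counts and a wider spread. Epb42 had 173, 229 and 760 B6 counts and 169, 265 and 823 CAST counts in the lowest, median and highest mouse. Its CAST share was 52.1% ± 2.65 (SD, n = 7), higher in 6 of 7 mice, with a fitted log2 fold change of 0.14 (FDR 0.831, edgeR, and 0.0333 with the block). Klf1 had 297, 341 and 890 B6 counts and 273, 330 and 692 CAST counts. Its CAST share was 47.9% ± 3.66 (SD, n = 7), higher in 2 of 7 mice, with a fitted log2 fold change of -0.13 (FDR 0.785, edgeR, and 0.405 with the block). The alleles of both genes overlapped across mice, and a difference between them was not detectable by the exact sign-flip permutation test (p 0.109 for Epb42 and 0.188 for Klf1).

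The alleles compared were measured in the same library, so the animal gives the pairing, and a block for the mouse changed the count of genes called. With this replicate block, 5 of the 7 genes were called by the likelihood-ratio test, beside 42.7% of all genes tested. The same 5 were called by edgeR's quasi-likelihood test with the block, beside 37.6% of all genes tested, with an FDR of 2.79e-10 for Hba-a2, 1.34e-06 for Hbb-bt, 0.00078 for Hbb-bs, 0.0261 for Slc4a1 and 0.113 for Epb42. The allele was the same in all 7 mice for 3 of the 7 genes, Hba-a2, Hbb-bs and Hbb-bt, beside 24.7% of all genes tested.

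**Figure D4:**
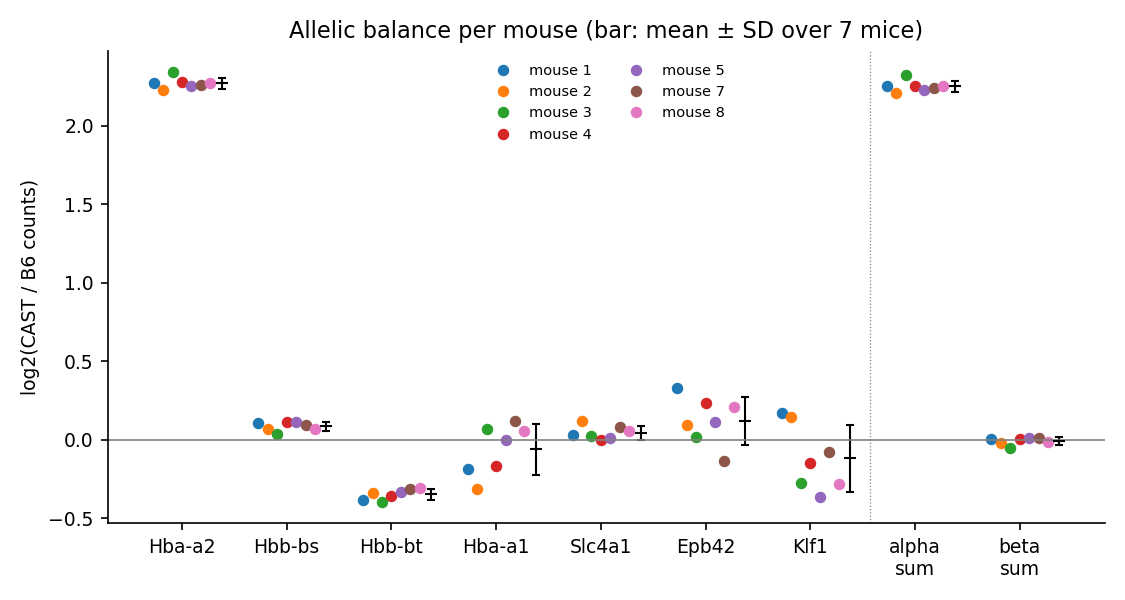
Log2 ratio of CAST to B6 counts (y axis) in each mouse for the 7 genes and for the summed alpha and beta copies, with mean ± SD over 7 mice beside each set of points. Hba-a2 and the alpha sum lie above 2.2 in every mouse, and all other points lie between -0.40 and 0.33.

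The remaining globin genes were rare or absent. Hbb-bh0, Hbb-bh2 and Hbb-bh3 were listed at 0 in all 7 mice, where 3 counts would be 0.0793 to 0.213 CPM. The embryonic globins Hba-x, Hbb-y and Hbb-bh1 had 0 to 2 counts per mouse. Hbq1b, a theta globin next to the alpha globins, had 83.7 to 273 counts, and its close copy Hbq1a had 5.37 to 30.8. Neither had a whole-number total in any mouse. Windows shared between this pair were not examined, so how far their split can be read is not known. Hbq1b was called with a log2 fold change of 0.62 (FDR 0.0647, edgeR), CAST higher in 6 of 7 mice, and it is named because it was the sole call among 2 tested genes of this list.

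Other genes of the red cell were taken from lists of heme and iron, red cell membrane, erythroid regulator, and red cell enzyme and maturation genes. The cells that gave these counts were not determined in this bulk tissue. The median r with Slc4a1 was 0.85 or higher in each list, but it was -0.11 for Steap3, 0.02 for Tmod1 and 0.04 for Jak2. With Hbq1a and Hbq1b of the globin list above included, 78 autosomal list genes were tested. Of these, 25 were called, 11 with CAST higher and 14 with B6 higher. That is 32.1%, beside 31.2% of all autosomal genes tested, of which 16% had CAST higher and 15.2% had B6 higher. The median fitted log2 fold change was 0.01 over the 78 genes and 0.02 over the 20682 autosomal genes. With the block, 49 of the 78 were called, or 62.8%, beside 41.8% of all autosomal genes.

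Heme and iron genes were called in 9 of 18 autosomal cases (50%, beside 31.2% of all autosomal genes), 7 with CAST higher and 2 with B6 higher. With the block 13 of 18 were called (72.2%, beside 41.8%). Steap3, an endosomal ferric reductase, had a CAST share of 63.5% ± 2.18 (SD, n = 7), with a log2 fold change of 0.82 (FDR 1.31e-15, edgeR). Fech, which inserts iron into heme, had a CAST share of 56.4% ± 2.02, Slc11a2, the iron transporter DMT1, 55.9% ± 1.98, and Ppox, a heme synthesis enzyme, 55.5% ± 2.49. Uros, uroporphyrinogen III synthase, went the other way with a CAST share of 35.8% ± 3.92 and a log2 fold change of -0.83 (FDR 6.4e-06, edgeR). For each of these 5 genes the same allele was higher in all 7 mice.

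Membrane genes were called in 6 of 19 autosomal cases, or 31.6%, near the 31.2% of all autosomal genes. With the block it was 15 of 19 (78.9%, beside 41.8%). B6 was higher for Cd59a, a complement inhibitor, with a CAST share of 36.1% ± 7.56 (SD, n = 7), and for Rhd, the Rhesus protein, with 40.4% ± 1.15. It was also higher for Tmod1, which caps actin filaments, with 43.0% ± 3.65, and for Gypc, glycophorin C, with 44.4% ± 2.46.

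Regulators were called in 3 of 19 autosomal cases (15.8%, beside 31.2% of all autosomal genes), 1 with CAST higher and 2 with B6 higher. With the block it was 8 of 19, or 42.1%, near the 41.8% of all autosomal genes. Gfi1b, a transcriptional repressor of the erythroid and megakaryocytic lineages, had a CAST share of 32.9% ± 6.29 (SD, n = 7) with a log2 fold change of -1.004 (FDR 0.000134, edgeR). Lmo2, a bridging factor of the GATA1 and TAL1 complex, had a CAST share of 43.2% ± 3.73. Jak2, the kinase bound to the erythropoietin receptor, had 59.1% ± 2.69. Each kept its direction in all 7 mice.

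Enzyme and maturation genes were called in 6 of 20 cases (30%, near the 31.2% of all autosomal genes), 1 with CAST higher and 5 with B6 higher. With the block it was 12 of 20 (60%, beside 41.8%). The carbonic anhydrase genes Car1 and Car2, both on chromosome 3, were the farthest from balance. Car1 had a CAST share of 7.25% ± 2.87 (SD, n = 7), with a log2 fold change of -3.61 (FDR 8.98e-47, edgeR). Car2 had a CAST share of 26.1% ± 3.37, with a log2 fold change of -1.51 (FDR 1.62e-22, edgeR). Tspo2, a translocator protein of erythroblasts, had 42.7% ± 2.67, and Ube2o, a ubiquitin ligase of reticulocyte maturation, had 44.8% ± 1.01. Car2 is also made by osteoclasts, whose markers were present in all mice.

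**Figure D5:**
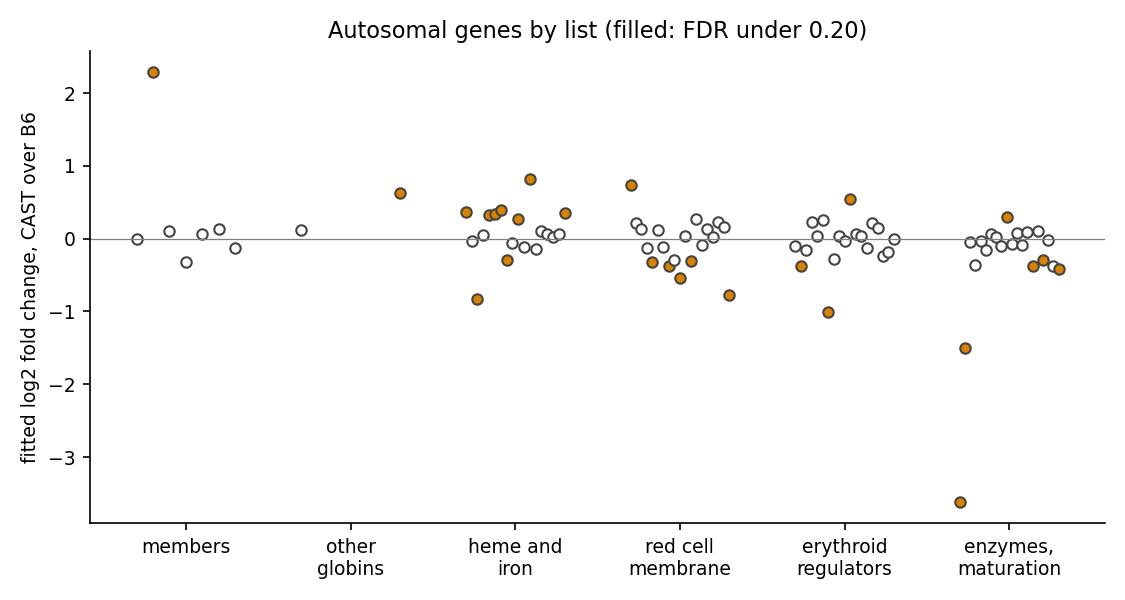
Fitted log2 fold change of CAST over B6 (y axis) for the 7 genes and for autosomal genes of 5 related lists, 1 point per gene, filled where the FDR was under 0.20. Hba-a2 is the highest point at 2.29 and Car1 the lowest at -3.61.

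The X-linked list genes give a measure of how cleanly their own alleles were assigned. It does not cover the globins, whose windows are shared between copies. Male mice carry a single X chromosome, and the counts of the 3 X-linked list genes lay almost wholly on B6. The CAST share was 0.585% ± 0.136 (SD, n = 7) for Alas2, 0.239% ± 0.255 for Gata1, the master regulator of the erythroid lineage, and 0.0116% ± 0.0196 for Xk, a membrane protein. At the other end, 1884 of the tested genes (8.64%) had equal B6 and CAST counts in every mouse within 0.001 counts, among them the list genes Fth1 and Trim58. Their columns hold no allelic difference to test. None of the 7 genes was among them.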

How the data were processed

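Total RNA from dissected growth plates was sequenced as stranded, rRNA-depleted paired reads of 75 bases. The authors aligned reads with Bowtie to joined B6 (mm10) and CAST transcriptomes, allowing 3 mismatches, and divided them with EMASE, and the deposited values are expected counts per gene and allele. Gene names came from GENCODE M21 (42462 of 43346 rows matched). Counts were rounded for the fits. As in the study, genes with a count on at least 1 allele in every mouse were fitted in edgeR with glmFit and glmLRT, comparing 7 CAST with 7 B6 columns at an FDR under 0.20. The version (4.0.16), the TMM factors and the adjustment over all 21805 such genes were chosen here. Alternatives were the mouse as a replicate block, quasi-likelihood tests, DESeq2 1.42.0, other factors, filters and thresholds, summed globin copies and each mouse left out. Log2 ratios used a pseudocount of 0.5. Sign-flip tests were two-sided and exact over 128 patterns. CPM used all counts as denominator. Of the 13 relations with Slc4a1 that were planned, 12 could be computed, since Ahsp was not analysed. Fits were tested on simulated data. The 7 mice are separate animals. Wilson intervals cover counting error only. The deviations of the 2 alleles of a mouse from their group means correlated at 0.105 on average (-0.033 to 0.249) and those of different mice at -0.018, and the pairing rests on the shared animal. Named list genes were called with and without the block and had 1 direction in all mice, at most 6 per list, and the result of 1 list gene is not reported here. The genes and lists were chosen with earlier results of these data known.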

Additional observations from a re-analysis of the deposited data

Results flagged for a closer look

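Of 18 sets of values tested for a single distant mouse (the log2 level and the log2 ratio of CAST to B6 for each gene and for the alpha and beta sums), 1 was past Dixon's limit, where chance gives about 1 in 20. In mouse 3 the log2 ratio of the summed alpha globin copies was 2.32, while the other 6 mice lay between 2.21 and 2.25. Its gap to the nearest mouse was 0.594 of the whole range. Without mouse 3 the mean log2 ratio of the alpha sum was 2.24, against 2.25 with all mice.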

How the results depend on the processing

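Hba-a2 was called in all 16 alternative fits in which it had a row of its own, with a log2 fold change of 2.27 to 2.29 and an FDR of at most 2.37e-07, and it was the sole gene of the 7 called in each fit without a replicate block. The replicate block raised the number called from 1 to 5 of 7 with the likelihood-ratio test and to 5 with the quasi-likelihood test, and with the globin copies also summed (chosen after seeing the data) to 3 of 5. The cause was not tested. The count over all genes, 7111, was 4816 at an FDR under 0.05, 9315 with the replicate block and 6366 to 6900 without each mouse in turn. The log2 ratio of the alpha sum stayed at 2.24 to 2.26 and that of the beta sum at -0.01 to -0.00109 without each mouse. Of the 12 relations with Slc4a1, 8 passed, and 6 to 10 passed without 1 mouse and 11 with protein-coding counts as the denominator. Without mouse 5, r of Epb42 was 0.81 (adjusted exact permutation p 0.0867). Centring on the autosomal median changed nothing, since that median was 0 in every mouse. Reads shared between copies limit single globin rows, and low counts limit Epb42 and Klf1.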
